A study of Sus scrofa with 8 samples.

Results

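The mucosa of the control neobladder was compared with the mucosa of the native bladder across all expressed genes. Surgeons fashion a neobladder from bowel to store urine where the bladder is replaced, and the comparison asks how the lining of such a reservoir differs from that of the organ it stands in for. The members were the 4 libraries with these labels, 2 of control neobladder and 2 of native bladder, out of 8 libraries in the series. Of the 31907 genes in the count tables, 16549 had enough counts to be tested, and 12436 of those carried a gene symbol. All 8 libraries came from tissue of Guizhou minipigs aged 8 months, and the other 4 held mucosa of an experimental neobladder and normal peritoneum. The labels name no genotype or treatment beyond group membership. They do not state how the control reservoir was lined, how long after surgery mucosa was taken, or whether the 2 libraries of a group came from separate animals. Error terms therefore measure the spread between libraries only, which may be technical. For each gene that spread is pooled over all 4 groups of the series, and is not specific to the 2 groups compared.

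The small intestine and the bladder carry epithelia built for opposite tasks. Ileal enterocytes absorb nutrients and bile acids through a brush border, lie among mucus-secreting goblet cells and hormone-secreting enteroendocrine cells, and are renewed from crypts. Urothelium is a stratified barrier whose surface cells carry plaques of uroplakins and whose basal cells rest on hemidesmosomes. Both lie on connective tissue with vessels, nerves and immune cells, so a piece of mucosa mixes many cell types. In such bulk samples fewer cells of a type and less RNA per cell cannot be told apart.

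Levels are counts relative to library size (CPM), scaled between libraries by trimmed mean of M-values (TMM) and given as the pair of values of replicates 1 and 2. They follow transcript length as well as abundance, so they are compared between libraries and not between genes. Library totals ran from 10.68 to 11.88 M counts in these 4 libraries. The 10 most abundant genes held 16.5 and 22.9% of the control counts and 6.53 and 5.87% of the native bladder counts, and the TMM factors were 0.839 and 0.449 in control and 1.16 and 1.21 in native bladder. A gene was called when edgeR's quasi-likelihood test gave a Benjamini-Hochberg adjusted p under 0.05 over all tested genes. "Higher" and "lower" below always mean called, and in control relative to native bladder. By that rule 3686 genes were called, 22.3% of those tested, with 11.2% higher and 11.1% lower. Every called gene differed by over 2-fold. The control and native bladder libraries did not overlap at 62.7% of tested genes, so that a lack of overlap was the usual state. The median log2 fold change over all tested genes was -0.11, and the median of each gene list below is to be read against it. The 65 lists hold 1796 symbols, of which 1505 are in the count tables and 1342 passed the filter on low counts, and list counts describe those tested members only. For a gene with 0 counts throughout a group, the fold printed is a lower bound that sets the group's summed count to 3, and it covers counting error alone.

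How many calls were higher depended on the scaling. On library totals alone the median of all genes moved to -0.97 and 18.7% of the calls were higher, against 50.4% on the TMM scale. A list count of 3 or more is followed by its value on library totals, without 1 library, or with the 2 groups fitted alone (2294 genes called), wherever that value differs by more than 1.5 times. Of the 54 list counts under 3, 39 moved by as much in at least 1 of those 6 fits, mostly unprinted, so they are not to be read as stable. Of the 76 list counts of 3 or more, 56 moved by as much in at least 1 of the 6, so larger counts are not stable either. A count can move through the error estimate as well as through the fold changes. Leaving out bladder replicate 1 or 2 left 1442 and 1667 calls, leaving out control replicate 2 left 3337, and leaving out control replicate 1 raised the number to 6485.

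The 5 marker genes given for the comparison followed the labels. FABP6 (chr16:63297594-63303675 on Sscrofa11.1), the ileal bile acid binding protein, stood at 31351 and 157528 CPM in control against 29.2 and 25.9 CPM in native bladder, log2 fold change 11.74 ± 1.23 (SE), adjusted p = 1.53e-04. NPC1L1 (chr18:50726854-50757676), the sterol uptake receptor of the brush border, had 254 and 51 CPM in control and 0 counts in either native bladder library. BTNL2 (chr7:24789988-24809920), a butyrophilin-like protein of enterocytes, had 717 and 252 CPM in control and 0 counts in either native bladder library. Both were at 0 in native bladder, NPC1L1 at least 1309.7-fold higher and BTNL2 at least 4161-fold higher. UPK2 (chr9:46200465-46202754), a surface protein of the urothelial plaque, stood at 1.96 and 5.62 CPM in control against 987 and 1051 CPM in native bladder, log2 fold change -8.11 ± 0.86 (SE), adjusted p = 1.63e-04. CLDN8 (chr13:193563314-193564090), a barrier-forming claudin, had 0 counts in either control library and 20.2 and 30.6 CPM in native bladder, at least 123-fold lower in control, adjusted p = 2.77e-04. The low but countable UPK2 in control read higher in replicate 2, as were 4.68 and 10.5 CPM of UPK1B and 40.5 and 103 CPM of UPK3A in those 2 libraries. FABP6 itself differed 5.02-fold between the control libraries, far more than between the native bladder libraries.

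**Figure D1:**
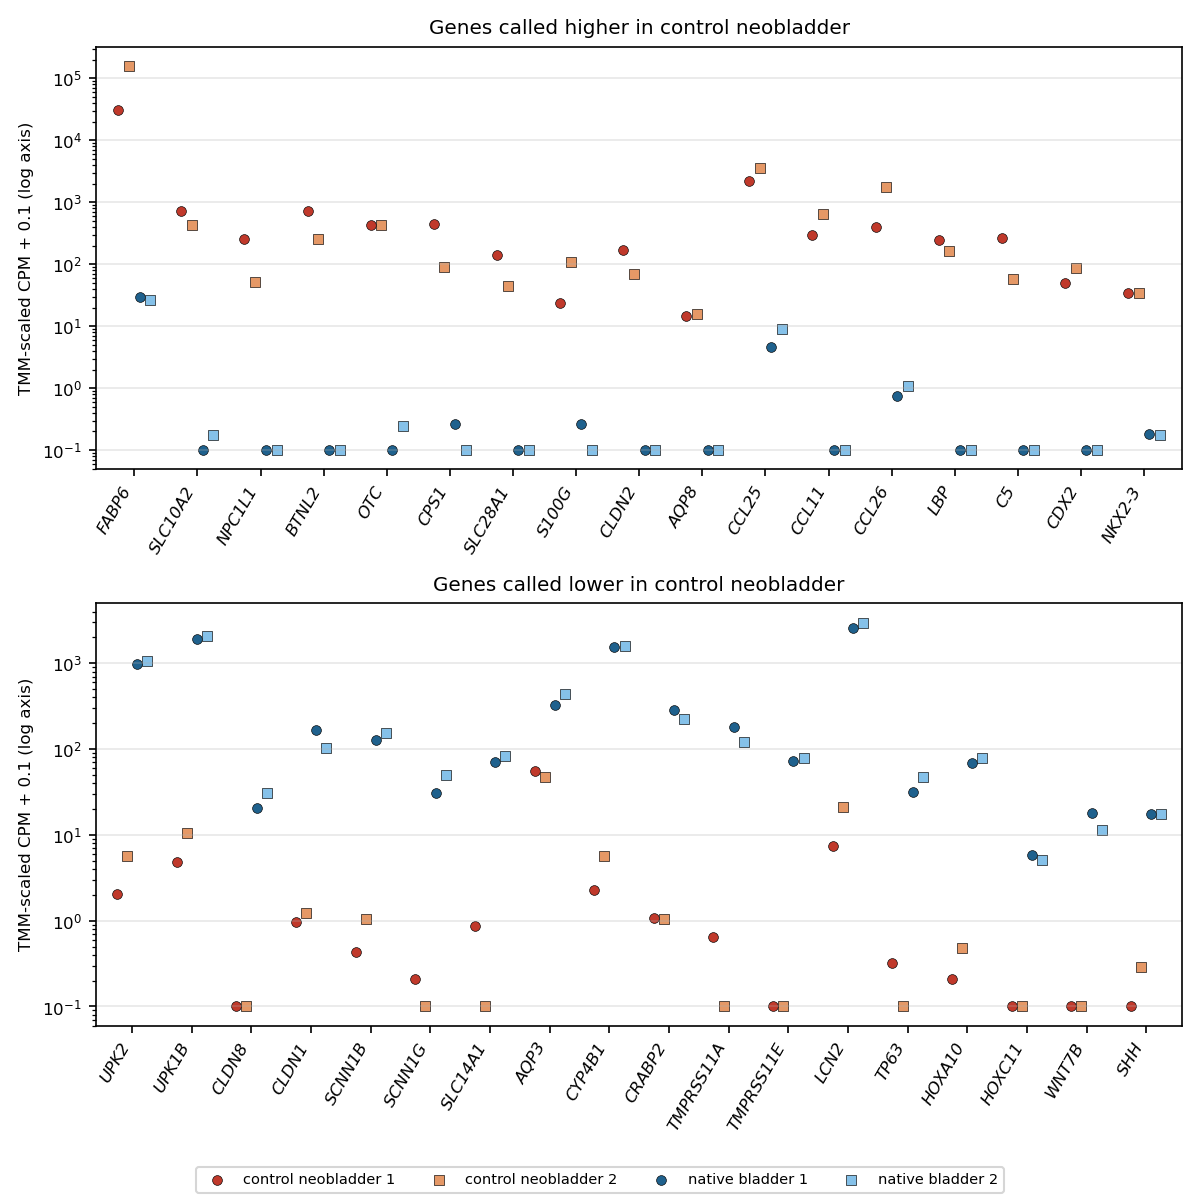
Levels of 35 called genes in each of the 4 libraries, as TMM-scaled CPM with 0.1 added, on a log axis, with genes higher in control above and genes lower in control below. Points on the lowest line are libraries with 0 counts. No pair of control points overlaps the pair of native bladder points of the same gene, as at 62.7% of all tested genes.

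That gap between the control replicates was not limited to FABP6. Among genes with a mean of 10 CPM or more in a group, 3585 of 8601 (41.7%) differed by over 2-fold between the control libraries, and 268 of 8736 (3.07%) between the native bladder libraries. The pooled error of the test does not follow this inequality between the groups. The difference followed gene length, measured as the genomic span of the gene, which was known for 93.4% of tested genes with a symbol. The Spearman correlation across genes of span with the log2 ratio of replicate 2 to replicate 1 was -0.325 in control and -0.084 in native bladder, where genes are not independent replicates. By quintiles of span, with median spans of 5.53, 15.1, 30.9, 63 and 170 kb, the median log2 ratio of the control libraries went from 0.55 through 0.03, -0.20 and -0.44 to -0.48. In native bladder it stayed between -0.03 and 0.09. Short genes thus read higher in control replicate 2 and long genes higher in control replicate 1.

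The calls themselves followed span as well. In the shortest quintile 17.7% of genes were higher and 9.42% lower, and in the longest quintile 6.63% were higher and 19.4% lower. When the length trend within each group was removed by an offset, 4136 genes were called, and 99.3% of the original calls were among them with the same direction. That offset evens out the replicates of a group and cannot remove a trend between the groups. After it the median log2 fold change ran from 0.38 in the shortest quintile to -0.57 in the longest, against 0.41 and -0.53 before. When the trend across all 8 libraries was removed as well, which takes out any true difference that follows length, 3766 were called and 91.4% of the calls were kept. Genes with no known span were left uncorrected in both fits.

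**Figure D2:**
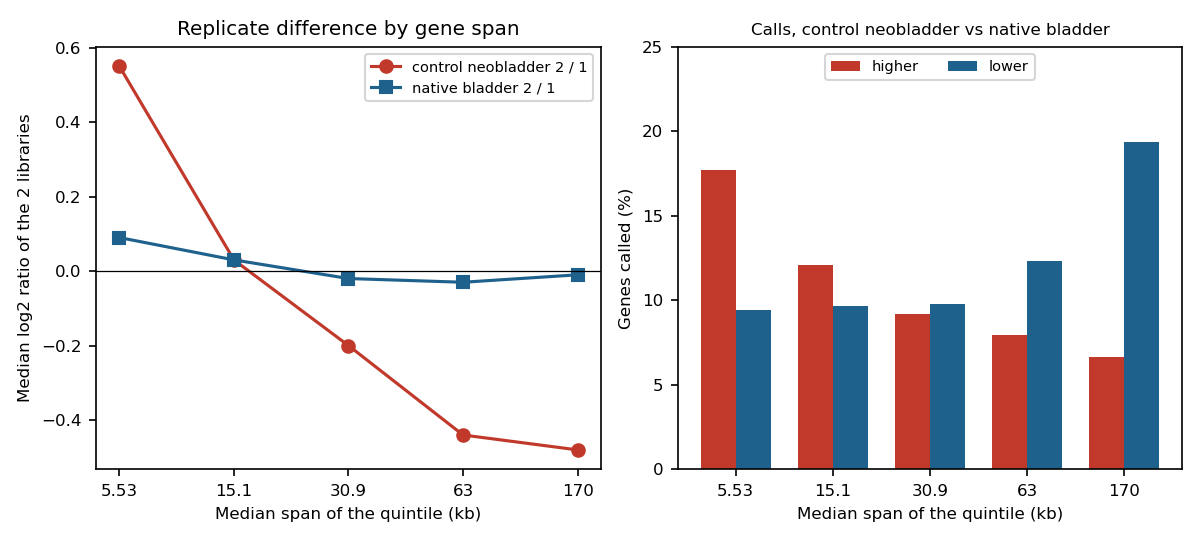
Left, the median log2 ratio of replicate 2 to replicate 1 in each quintile of gene span, for the control and the native bladder libraries; right, the share of genes in each quintile that was higher or lower in control. The control line runs from 0.55 to -0.48 while the native bladder line stays near 0, and the share of lower calls reaches 19.4% among the longest genes.

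Genes of 1 cell type could differ in opposite directions between the control libraries. SPINK4, a small secreted inhibitor of goblet cells with a span of 9.36 kb, had 3219 and 22973 CPM in control and 2.58 and 3.66 CPM in native bladder. MUC2, the gel-forming mucin of the same cells with a span of 30.2 kb, stood at 1244 and 292 CPM in control against 1.78 and 0.299 CPM in native bladder. Both were higher than in native bladder in each control library, but replicate 2 held 7.14-fold more SPINK4 and replicate 1 held 4.26-fold more MUC2. Gene lists could also differ in opposite directions. All 34 tested ribosomal protein genes, with a median span of 4.16 kb, read higher in control replicate 2 than in replicate 1, by a median log2 ratio of 2.86. Brush border peptidases and disaccharidases, at a median span of 43.6 kb, had a median ratio of -1.76. Both ratios lay outside the quintile medians, which ran from 0.55 to -0.48. Span did not order all lists. Immediate early and heat shock genes, at 4.62 kb, had a median ratio of -0.24, positional genes, at 5.41 kb, 0.01 and collagens, at 147 kb, -0.54.

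**Figure D3:**
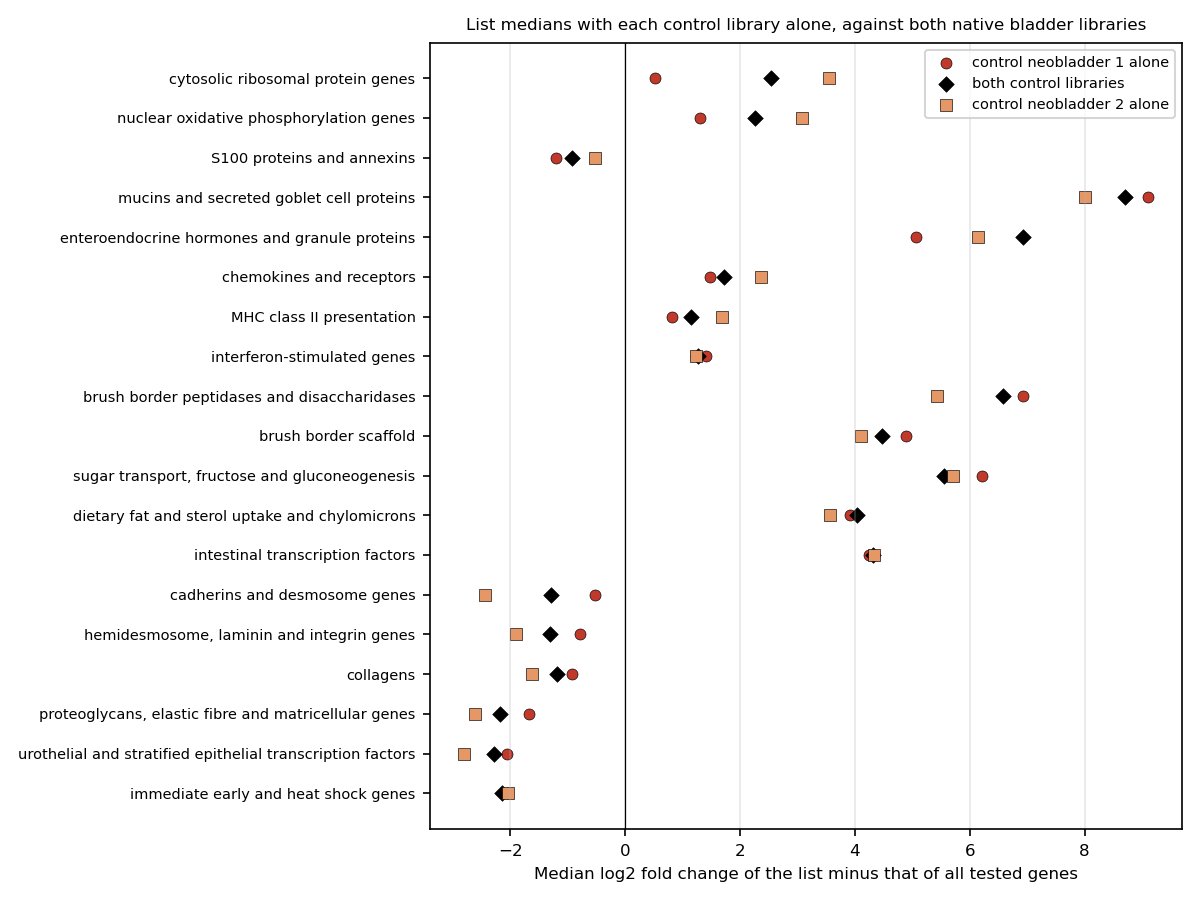
Median log2 fold change of 19 gene lists, minus the median of all tested genes, with both control libraries (diamonds) and with each alone (circles and squares) against both native bladder libraries. The ribosomal list moves from 0.52 with control replicate 1 alone to 3.55 with control replicate 2 alone, while each other list shown stays on the same side of 0.

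Transcription factors of the 2 organs separated the groups. Of 22 tested intestinal factors 15 were higher and 1 lower, for a median of 4.21, and of 27 urothelial and stratified epithelial factors 17 were lower and none higher, with a median of -2.39. CDX2, the homeobox factor that directs intestinal fate, had 50.6 and 87.5 CPM in control and 0 counts in either native bladder library, at least 593-fold higher in control, adjusted p = 7.84e-05. ISX, a homeobox factor that represses carotenoid uptake in the gut, had 79.1 and 47.6 CPM in control and 0 counts in either native bladder library. ATOH1, which directs cells to the secretory lineage, had 47.7 and 27.2 CPM in control and 0 counts in either native bladder library. All 3 were at 0 in native bladder. The nuclear receptors HNF4A and HNF4G, regulators of enterocyte genes, had a low level in native bladder, HNF4A at 9.69 and 6.13 CPM against 252 and 129 CPM in control. POU2F3, the factor of tuft cells, was the 1 member of the intestinal list that went the other way, with 1.09 and 0.937 CPM in control and 13.1 and 20.2 CPM in native bladder.

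In the urothelial list TP63, the factor of basal epithelial cells, went from 31.3 and 47 CPM in native bladder to 0.218 and 0 CPM in control. GATA3 had 10.02 and 2.44 CPM in control and 147 and 206 CPM in native bladder. The adipogenic and urothelial receptor PPARG stood at 14.2 and 27.5 CPM in control against 271 and 284 CPM in native bladder, log2 fold change -3.74 ± 0.49 (SE), adjusted p = 5.62e-04. GRHL3, a grainyhead factor of barrier epithelia, was lower with 1.20 and 4.68 CPM in control and a log2 fold change of -6.62. ELF5, an ETS factor of glandular and stratified epithelia, went from 22.5 and 20.4 CPM in native bladder to 0.327 and 0.562 CPM in control. Control libraries lay below both native bladder libraries for each of these, where 62.7% of all tested genes showed no overlap in either direction. ELF3, an ETS factor of both epithelia, had 482 and 187 CPM in control and 1000.3 and 707 CPM in native bladder and was not called, adjusted p = 0.137.

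Genes that mark position along the body differed too. Of 25 tested HOX genes 9 were lower and 1 higher. Among the posterior paralogue groups, 9 to 13, 6 of 9 were lower and none higher, and among groups 1 to 8, 3 of 16 were lower and 1 higher. By cluster, 6 of 7 HOXA, 1 of 6 HOXC and 2 of 5 HOXD genes were lower, and none of the 7 HOXB genes was called. The parts of paralogue group and cluster were not told apart. HOXA10 stood at 0.109 and 0.375 CPM in control against 68.8 and 78.6 CPM in native bladder. HOXA9 went from 17.9 and 23.3 CPM in native bladder to 0.109 and 0.375 CPM in control. HOXC11 had 0 counts in either control library and 5.65 and 5.01 CPM in native bladder, at least 25.8-fold lower. HOXA5 and HOXA7, from the middle of the HOXA cluster, were also lower, with HOXA5 at 1.09 and 3.75 CPM in control and 23.3 and 47.1 CPM in native bladder. NKX2-3, a homeobox factor of gut mesenchyme, went the other way with 33.8 and 33.9 CPM in control and 0.0808 and 0.0747 CPM in native bladder. FOXF1, a factor of visceral mesenchyme, was lower, with 32.5 and 21.9 CPM in control and 123 and 120.1 CPM in native bladder. In the whole positional list 14 of 37 genes were lower and 2 higher. The lower count was 7 without bladder replicate 2.

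Retinoid genes divided between the mucosae. In that list 9 of 29 were higher and 6 lower, a median of 0.24. The higher count was 5 without bladder replicate 1 or 2. CRABP2, which carries retinoic acid to its nuclear receptor, stood at 0.980 and 0.937 CPM in control against 286 and 221 CPM in native bladder, log2 fold change -8.02 ± 0.52 (SE), adjusted p = 1.78e-05. Its relative CRABP1 went from 11.2 and 19.5 CPM in native bladder to 0.109 and 2.25 CPM in control. The synthesis enzyme ALDH1A2 had 0.980 and 0.749 CPM in control and 31.3 and 34.4 CPM in native bladder. The receptor RARB, itself a retinoic acid target, stood at 2.40 and 4.68 CPM in control against 56.9 and 65.1 CPM in native bladder. Each of these was lower. RBP2, the intestinal retinol carrier, went from 0 and 0.374 CPM in native bladder to 41.9 and 176 CPM in control. DHRS9, a retinol dehydrogenase, had 55.9 and 66 CPM in control and 9.37 and 9.86 CPM in native bladder. CYP26A1, which degrades retinoic acid, had 1.42 and 3.56 CPM in control and 0 counts in either native bladder library. These 3 were higher, the last at low levels.

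Genes of nutrient absorption were higher in most of the lists examined. Of 11 intracellular lipid-binding proteins 5 were higher and 2 lower, with a median of 1.78, or 1.53 with genes at 0 set to their bound. FABP2, the intestinal fatty acid binding protein, had 57 and 119.5 CPM in control and 0 counts in either native bladder library. FABP3, the heart-type form, had 15.4 and 96.3 CPM in control and 2.10 and 2.76 CPM in native bladder. FABP5, the epidermal form, stood at 151 and 366 CPM in control against 73.5 and 76.5 CPM in native bladder. Each of these was higher. The 2 lower members were CRABP1 and CRABP2. FABP4, the adipocyte form, had 0.436 and 3.93 CPM in control and 1.37 and 0.672 CPM in native bladder and was not called.

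Bile acid genes of the enterocyte were higher as a chain from uptake to export. SLC10A2, the apical bile acid transporter of ileum, had 728 and 426 CPM in control and 0 and 0.0747 CPM in native bladder. SLC51A and SLC51B, the paired subunits of the basolateral exporter, had 532 and 630.1 CPM and 585 and 2169.9 CPM in control, against 0.646 and 0.897 CPM and 1.21 and 0.822 CPM in native bladder. NR1H4, the bile acid receptor, stood at 294 and 299 CPM in control against 0.727 and 0.149 CPM in native bladder. Its target NR0B2 had 12.2 and 19.9 CPM in control and 0 counts in either native bladder library. The remaining 7 of 12 tested members were not called. They included the hepatic exporter ABCB11, with 0 and 0.937 CPM in control and 3.23 and 4.03 CPM in native bladder, and the conjugate pump ABCC3, with 37.8 and 20.4 CPM in control and 60.1 and 46.2 CPM in native bladder, neither of which was higher in any control library than in a native bladder one.

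For dietary fat and sterols 19 of 24 genes were higher and 1 lower, with a median of 3.93. APOA4, an apolipoprotein of chylomicrons, had 325 and 212 CPM in control and 0 and 0.149 CPM in native bladder. The chylomicron scaffold APOB stood at 136 and 65.8 CPM in control against 0 and 0.224 CPM in native bladder. Its lipid loader MTTP went from 0.162 and 0.374 CPM in native bladder to 328 and 72 CPM in control. APOA1, an apolipoprotein of high-density lipoprotein, had 3877 and 4335 CPM in control and 98.3 and 159 CPM in native bladder, a level in native bladder well above 0. CIDEB, which helps to lipidate these particles, stood at 213 and 119.7 CPM in control against 1.53 and 2.54 CPM in native bladder. The gut and liver factor CREB3L3 went from 0 and 0.0747 CPM in native bladder to 110.3 and 37.8 CPM in control. PLIN2, the coat protein of lipid droplets, had 731 and 815 CPM in control and 202 and 229.7 CPM in native bladder. In cholesterol synthesis 4 of 24 were higher and 1 lower, a median of 0.53. That higher count was 8 without control replicate 1, 0 on library totals alone or without bladder replicate 1 or 2 and 1 in the 2 groups alone. TM7SF2, a sterol reductase, was the lower member, with 1.96 and 3.56 CPM in control and 32.9 and 17.9 CPM in native bladder. In fatty acid oxidation 3 of 23 were higher and 1 lower, a median of 0.82, and the higher count was 8 without control replicate 1, 13 without control replicate 2, 0 without bladder replicate 1 or on library totals alone and 1 without bladder replicate 2 or in the 2 groups alone. ACADL, which oxidises long-chain acids, stood at 215 and 145 CPM in control against 24.3 and 38 CPM in native bladder. The share called was 20.8% in cholesterol synthesis and 17.4% in fatty acid oxidation, against 22.3% of all tested genes. Neither list thus held more calls than genes at large.

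Brush border enzymes and their scaffold were higher with no lower member. Of 18 peptidases and disaccharidases 14 were higher (median 6.47), and of 21 scaffold genes 14 (median 4.37). Sucrase-isomaltase (SI) went from 0.0808 and 0 CPM in native bladder to 401 and 102 CPM in control. Maltase-glucoamylase (MGAM) had 672 and 210.2 CPM in control and 3.88 and 4.93 CPM in native bladder. Aminopeptidase N (ANPEP) stood at 5549 and 1029 CPM in control against 40.6 and 42.9 CPM in native bladder. ENPEP, aminopeptidase A, went from 4.85 and 8.37 CPM in native bladder to 1679.9 and 298 CPM in control. Meprin beta (MEP1B) had 692 and 339.9 CPM in control and 0.162 and 0.149 CPM in native bladder. The membrane dipeptidase DPEP1 stood at 504 and 857 CPM in control against 1.94 and 3.59 CPM in native bladder. For every one of these enzymes both control libraries lay above both native bladder libraries, where 62.7% of all tested genes showed no overlap in either direction.

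Of the scaffold, villin (VIL1), the actin bundler of microvilli, went from 0.889 and 1.34 CPM in native bladder to 2431 and 829.9 CPM in control. CDHR2 and CDHR5, the protocadherins that link microvillus tips, were both higher. CDHR2 had 688 and 104 CPM in control and 0.646 and 0.224 CPM in native bladder. CDHR5 stood at 122 and 56.4 CPM in control against 0.242 and 0.149 CPM in native bladder. The anchoring protein PDZK1 went from 0.323 and 0.523 CPM in native bladder to 601 and 499 CPM in control. Espin (ESPN) had 56.5 and 56.6 CPM in control and 0.565 and 1.05 CPM in native bladder. EZR, which ties microvilli to actin in many epithelia, stood at 1097 and 286 CPM in control against 1231 and 638 CPM in native bladder and was not called.

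Sugar uptake genes were mostly higher, and fewer of the amino acid transporters were. Of 15 genes of sugar transport, fructose use and gluconeogenesis 11 were higher and none lower, a median of 5.44. SLC5A1, the sodium-glucose cotransporter, went from 23.5 and 40.8 CPM in native bladder to 2212 and 580.5 CPM in control. SLC2A2, the basolateral glucose carrier, had 109 and 50.03 CPM in control and 0.565 and 0 CPM in native bladder. Ketohexokinase (KHK), which starts fructose use, was higher with 529 and 1238 CPM in control and 28.1 and 31.5 CPM in native bladder. PCK1, which commits carbon to gluconeogenesis, stood at 92.2 and 36.5 CPM in control against 0 and 0.299 CPM in native bladder. Of 21 amino acid and peptide transporters 8 were higher and 1 lower, a median of 0.64. SLC15A1, the peptide transporter, went from 0.0808 and 0.374 CPM in native bladder to 381 and 82.6 CPM in control. SLC7A9, the cystine exchanger subunit, had 175 and 168 CPM in control and 0.404 and 0.0747 CPM in native bladder. SLC6A19, a neutral amino acid carrier, stood at 103 and 29.6 CPM in control against 0 and 0.0747 CPM in native bladder. The lower one was SLC38A2, a widely expressed amino acid transporter, with 145 and 98.7 CPM in control and 355 and 353 CPM in native bladder.

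Enzymes with which enterocytes make citrulline were higher. In that list 11 of 16 genes were higher and 1 lower, a median of 2.50, and the higher count was 7 on library totals alone or without bladder replicate 1 or 2. OTC, ornithine transcarbamylase, went from 0 and 0.149 CPM in native bladder to 429.7 and 432 CPM in control, with near-equal control replicates (adjusted p = 1.78e-05, on 2 counts in the native bladder libraries). CPS1, which makes its carbamoyl phosphate, had 448 and 88.6 CPM in control and 0.162 and 0 CPM in native bladder. NAGS, which makes the activator of CPS1, stood at 21.7 and 35.8 CPM in control against 0.0808 and 0.149 CPM in native bladder. The ornithine carrier SLC25A15 went from 15.3 and 12.2 CPM in native bladder to 194 and 86.2 CPM in control. Ornithine aminotransferase (OAT) had 1727 and 1026 CPM in control and 147 and 93.1 CPM in native bladder. ASS1, which uses citrulline, stood at 971 and 1481 CPM in control against 20.4 and 20.8 CPM in native bladder, log2 fold change 5.89 ± 0.52 (SE), adjusted p = 6.18e-05. NOS2, the inducible nitric oxide synthase, went from 1.94 and 2.54 CPM in native bladder to 123 and 16.1 CPM in control.

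For vitamins and metals 10 of 22 genes were higher and 2 lower, a median of 1.22. The higher count was 5 without bladder replicate 1, and the lower count 5 without control replicate 1 and 1 in the 2 groups alone or without bladder replicate 1 or 2. S100G, the calcium carrier calbindin D9k, had 24 and 108 CPM in control and 0.162 and 0 CPM in native bladder, while TRPV6, a calcium entry channel, was lower at 1.63 and 3.75 CPM in control and 18.3 and 21.9 CPM in native bladder. The zinc importers SLC39A4 and SLC39A5 were both higher. SLC39A4 stood at 134 and 92.6 CPM in control against 1.78 and 2.76 CPM in native bladder. SLC39A5 went from 0.485 and 0.299 CPM in native bladder to 239.8 and 333 CPM in control. Cubilin (CUBN) and its partner AMN, which take up vitamin B12 bound to intrinsic factor, were both higher. CUBN had 55 and 12.9 CPM in control and 1.37 and 0.448 CPM in native bladder. AMN stood at 134 and 101 CPM in control against 6.30 and 6.5 CPM in native bladder. Ferritin light chain (FTL) went from 2246 and 3155 CPM in native bladder to 9356 and 48124 CPM in control, and CYBRD1, a ferric reductase, was lower with 171 and 101 CPM in control and 349 and 373 CPM in native bladder. Of 19 genes of nucleotide and purine handling 9 were higher and 3 lower, a median of 1.48, and the lower count was 0 in the 2 groups alone or without bladder replicate 1 or 2. The nucleoside transporters SLC28A1 and SLC28A2 were both higher. SLC28A1 had 139.8 and 44.8 CPM in control and 0 counts in either native bladder library. SLC28A2 stood at 217 and 126 CPM in control against 8.0 and 8.74 CPM in native bladder. Uridine phosphorylase (UPP1) went from 14.7 and 12.7 CPM in native bladder to 216 and 595 CPM in control.

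Ion transport genes went in both directions. Of 24 chloride, bicarbonate and proton transport genes 12 were higher and 1 lower, a median of 1.70. Their counts were 7 without bladder replicate 2 for higher and 7 without control replicate 1 and 3 on library totals alone for lower. SLC26A3, the chloride-bicarbonate exchanger, had 219.7 and 103 CPM in control and 0.0808 and 0.747 CPM in native bladder. CFTR, the chloride channel opened by cyclic AMP signalling, stood at 35.8 and 14.8 CPM in control against 0.242 and 0.0747 CPM in native bladder. The carbonic anhydrases CA4 and CA7 were both higher. CA4 went from 7.75 and 2.39 CPM in native bladder to 252 and 198 CPM in control. CA7 had 241 and 336 CPM in control and 0.0808 and 0.523 CPM in native bladder. The lower member was SLC9A4, a sodium-hydrogen exchanger, with 0.544 and 0.749 CPM in control and 180.3 and 199 CPM in native bladder, log2 fold change -8.21 ± 0.71 (SE), adjusted p = 6.12e-05.

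Of 24 sodium, potassium and mechanosensory channel genes 7 were lower and 4 higher, a median of -0.14. The higher count was 0 on library totals alone or without bladder replicate 1 or 2 and 1 in the 2 groups alone. SCNN1B and SCNN1G, subunits of the epithelial sodium channel, were both lower. SCNN1B stood at 0.327 and 0.937 CPM in control against 129 and 152 CPM in native bladder. SCNN1G went from 30.9 and 49.2 CPM in native bladder to 0.109 and 0 CPM in control. The stretch-gated PIEZO1 had 6.53 and 3.0 CPM in control and 41.7 and 31.5 CPM in native bladder. TRPV4, a cation channel that responds to swelling, stood at 3.92 and 0.937 CPM in control against 57.3 and 51.4 CPM in native bladder. The potassium channels KCNK1 and KCNJ15 were lower as well, KCNK1 at 44.9 and 48.3 CPM in control and 268 and 181 CPM in native bladder.

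Water and urea channels went both ways, 2 higher and 2 lower of 7. SLC14A1, the urea transporter UT-B, went from 69.9 and 83.3 CPM in native bladder to 0.762 and 0 CPM in control. AQP3, a water and glycerol channel, had 55.9 and 47.4 CPM in control and 325 and 433 CPM in native bladder. AQP8, which carries water in gut epithelium, had 14.3 and 15.4 CPM in control and 0 counts in either native bladder library. AQP11, an intracellular aquaporin, went from 2.99 and 6.13 CPM in native bladder to 70.2 and 167 CPM in control. AQP1, the water channel of vessels, had 11.9 and 8.43 CPM in control and 8.56 and 13.4 CPM in native bladder and was not called.

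Tight junction genes went both ways. Of 20 claudins and tight junction proteins 3 were higher and 3 lower, a median of -0.55. Their lower count was 9 without control replicate 1 and 6 on library totals alone, and their higher count 1 without bladder replicate 2 or on library totals alone. Pore-forming CLDN2 had 172 and 69.5 CPM in control and 0 counts in either native bladder library. CLDN15 went from 2.83 and 1.57 CPM in native bladder to 5.77 and 19.3 CPM in control. Both were higher, as was CLDN3. The lower members were CLDN8 above, CLDN1 with 0.871 and 1.12 CPM in control and 166 and 102 CPM in native bladder and CLDN4 with 599 and 286 CPM in control and 5507 and 2022 CPM in native bladder. CLDN7 had 1762 and 1379 CPM in control and 1013 and 595 CPM in native bladder and was not called. Keratins had 2 higher and 5 lower of 10, and the lower count was 3 without control replicate 1 or without bladder replicate 1 or 2. KRT20, of enterocytes and of surface urothelium, stood at 3569.6 and 1862 CPM in control against 0.565 and 0.897 CPM in native bladder. KRT7, of transitional epithelium, went from 4825 and 3564 CPM in native bladder to 7.95 and 26.8 CPM in control. KRT8, of simple epithelia, had 6595 and 5035 CPM in control and 2256 and 1617 CPM in native bladder and was not called.

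Most cell adhesion genes were not called, and those called were lower with 1 exception. The share called was 28.6% of cadherins and desmosome genes and 36.4% of hemidesmosome, laminin and integrin genes, against 22.3% of all tested genes. Of 21 cadherins and desmosome genes 5 were lower and 1 higher, a median of -1.40, and the lower count was 9 without control replicate 1, 3 without bladder replicate 1 and 8 on library totals alone. The higher one was CDH17, the liver-intestine cadherin, with 862 and 222 CPM in control and 6.14 and 4.56 CPM in native bladder. CDH3, of basal epithelium, stood at 0.327 and 0.937 CPM in control against 9.29 and 5.75 CPM in native bladder, and the envelope proteins periplakin (PPL) and envoplakin (EVPL) were both lower. PPL went from 58.2 and 48.8 CPM in native bladder to 4.68 and 1.31 CPM in control. EVPL had 0.762 and 0.187 CPM in control and 12.5 and 11.7 CPM in native bladder. CDH1, the cadherin of both epithelia, stood at 674 and 93.7 CPM in control against 1192 and 912 CPM in native bladder and was not called. Of 22 hemidesmosome, laminin and integrin genes 8 were lower and none higher, a median of -1.41. That lower count was 17 without control replicate 1, 3 without bladder replicate 1 or in the 2 groups alone and 5 without bladder replicate 2, and the list's median span was 82.4 kb, where control replicate 2 read low. ITGB6, an epithelial integrin that activates TGF-beta, went from 202 and 134 CPM in native bladder to 8.60 and 5.62 CPM in control. LAMA5, a laminin of basement membranes, had 5.34 and 2.81 CPM in control and 61.3 and 59.1 CPM in native bladder. LAMA3, the laminin of hemidesmosomes, stood at 68 and 10.9 CPM in control against 348 and 162 CPM in native bladder.

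Urothelial plaque genes were lower in 7 of 12 cases and higher in none, a median of -1.84, and the lower count was 4 without bladder replicate 1. UPK1A went from 90.6 and 103 CPM in native bladder to 0 and 0.937 CPM in control. UPK1B had 4.68 and 10.5 CPM in control and 1931 and 2099.9 CPM in native bladder. UPK3A stood at 40.5 and 103 CPM in control against 1511 and 1602 CPM in native bladder. Of the 4 uroplakins named, UPK3A differed least, with a log2 fold change of -4.44 against -8.07 for UPK1B. SNX31, a sorting nexin that binds uroplakins, had 0 counts in either control library and 1.70 and 1.42 CPM in native bladder. The vesicle GTPases RAB11A and RAB27B, which many epithelia use, were not called. RAB11A had 353 and 286 CPM in control and 616 and 616 CPM in native bladder. RAB27B stood at 59.2 and 48.2 CPM in control against 82.4 and 70.8 CPM in native bladder. Squamous genes were lower in 6 of 14 cases and higher in none, with a median of -4.32, or -2.49 with genes at 0 set to their bound. LY6D, a surface protein of stratified epithelia, went from 1138 and 956 CPM in native bladder to 5.01 and 12 CPM in control. Involucrin (IVL), a precursor of the cornified envelope, had 7.62 and 19.1 CPM in control and 641 and 444 CPM in native bladder. Its cross-linking enzyme TGM1 stood at 0.762 and 0.562 CPM in control against 38.5 and 17.9 CPM in native bladder. CERS3, which makes barrier ceramides, had 0 counts in either control library and 25.8 and 26.8 CPM in native bladder.

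Membrane serine proteases formed a group with 10 of 22 lower and 1 higher, a median of -1.70. TMPRSS11A had 0.544 and 0 CPM in control and 180.2 and 119.7 CPM in native bladder. TMPRSS11E had 0 counts in either control library and 72.9 and 77.9 CPM in native bladder. TMPRSS11F went from 85.2 and 70.5 CPM in native bladder to 0 and 0.749 CPM in control. All 3 encode type II transmembrane proteases of stratified epithelia. The control libraries held from 0 to 0.749 CPM of these. TMPRSS4 had 24.7 and 9.37 CPM in control and 283 and 193 CPM in native bladder. Tissue plasminogen activator (PLAT) stood at 60.7 and 18.2 CPM in control against 1311 and 560.3 CPM in native bladder. SLPI, an inhibitor of leukocyte proteases, was higher with 42.7 and 198 CPM in control and 4.12 and 4.41 CPM in native bladder. Of 16 serpins 5 were lower and 2 higher, the latter 4 without control replicate 2 and 1 without bladder replicate 2 or on library totals alone. SERPINB5, maspin, went from 299 and 122 CPM in native bladder to 15 and 9.56 CPM in control. SERPINF1, an antiangiogenic serpin, had 29.6 and 45.5 CPM in control and 468 and 515 CPM in native bladder, while SERPINB1, of leukocytes, stood at 307 and 316 CPM in control against 79.97 and 71.4 CPM in native bladder.

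S100 proteins and annexins split by member, 3 higher and 6 lower of 17, with a lower count of 3 without bladder replicate 1 or 2. ANXA13, an annexin of intestine, went from 7.03 and 7.47 CPM in native bladder to 267 and 493 CPM in control. ANXA4 had 1143 and 1100.05 CPM in control and 166 and 200.1 CPM in native bladder. ANXA9 stood at 1.09 and 1.12 CPM in control against 117 and 129.6 CPM in native bladder. ANXA1, a phospholipid-binding protein with anti-inflammatory action, went from 2559.7 and 589 CPM in native bladder to 84.5 and 123 CPM in control. The native bladder values of ANXA1 lay far apart but above both control values.

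**Figure D4:**
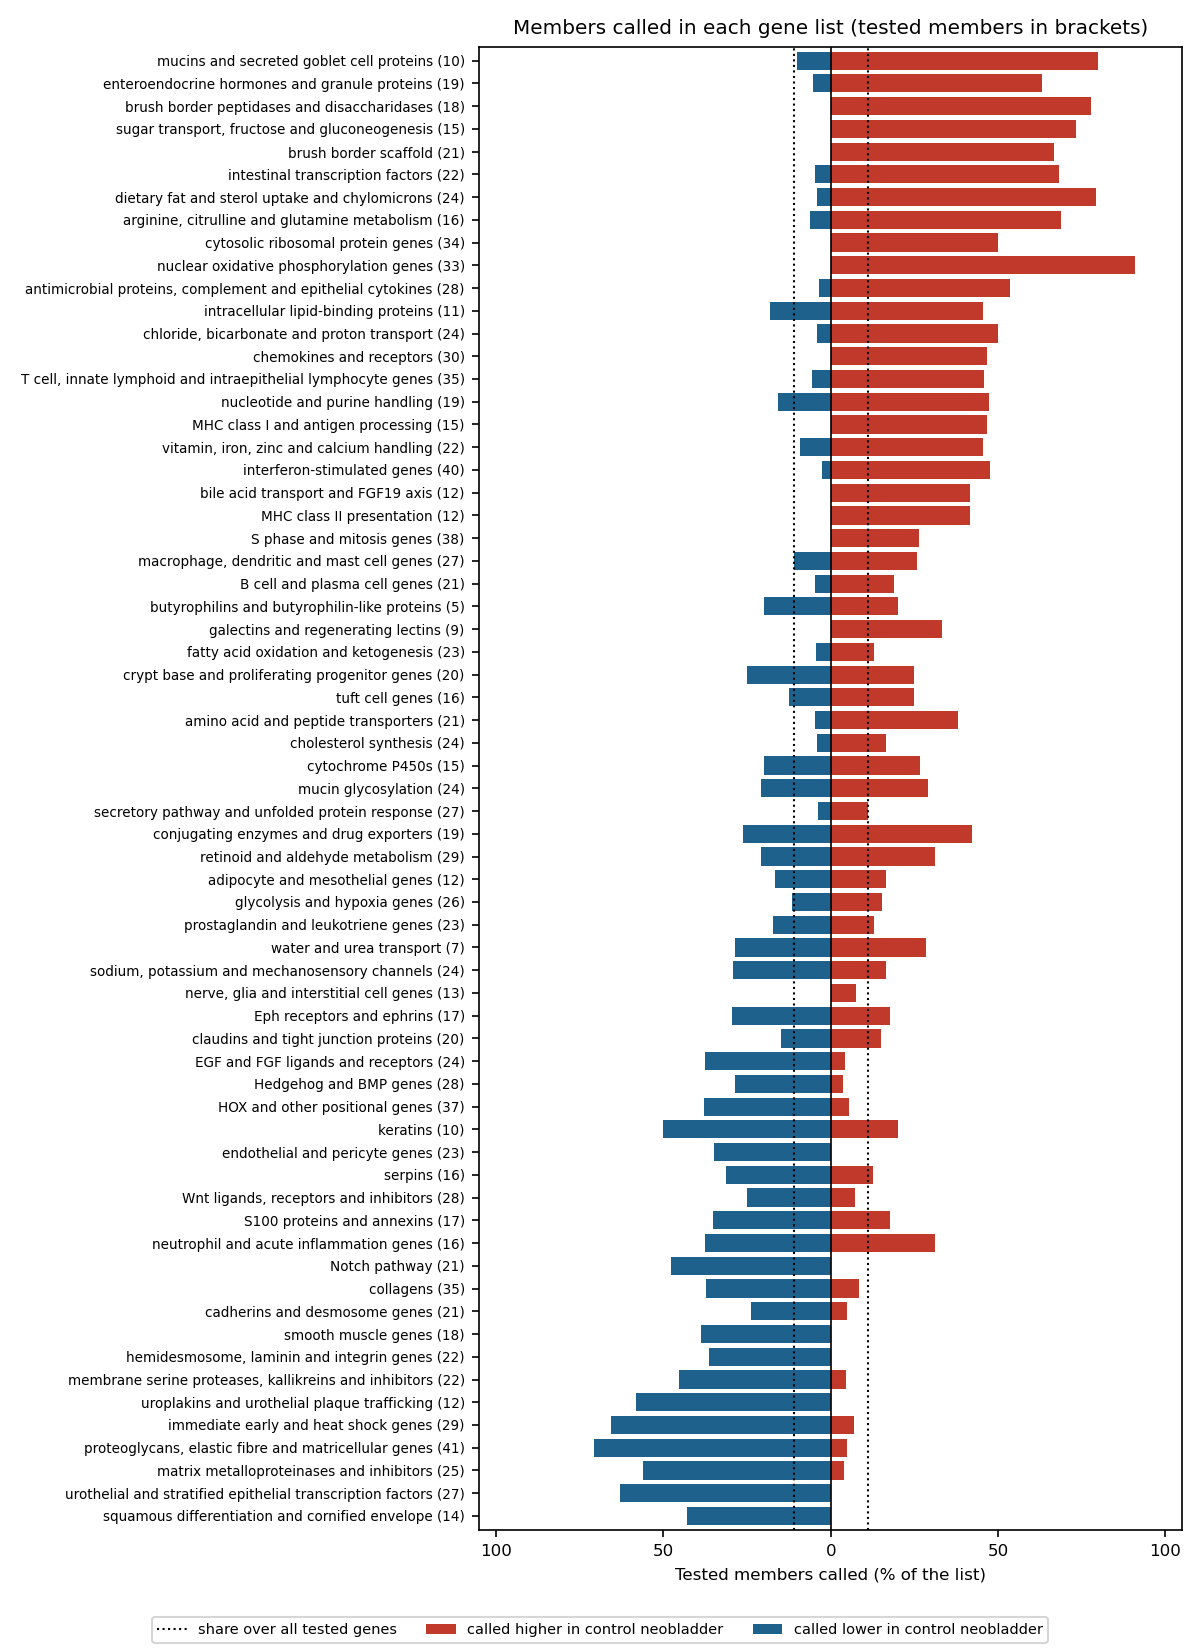
Share of tested members called higher (right) or lower (left) in control neobladder for 65 gene lists, ordered by median log2 fold change, with dotted lines at the 11.2% and 11.1% of all tested genes called in each direction. Absorption, secretory and respiratory lists reach furthest to the right, and stratified epithelial, matrix and immediate early lists furthest to the left.

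Enzymes of foreign compound metabolism did not share 1 direction. Of 15 cytochrome P450s 4 were higher and 3 lower, the higher count being 1 without bladder replicate 1 and 2 without bladder replicate 2 or on library totals alone or in the 2 groups alone and the lower count 1 in the 2 groups alone or without bladder replicate 1 or 2. CYP4B1, a P450 of lung and bladder, had 2.18 and 5.62 CPM in control and 1527 and 1592 CPM in native bladder, log2 fold change -8.68 ± 0.91 (SE), adjusted p = 1.52e-04. CYP1A1, which oxidises aromatic hydrocarbons, stood at 843 and 466 CPM in control against 6.87 and 4.71 CPM in native bladder, log2 fold change 6.82 ± 0.68 (SE), adjusted p = 1.11e-04. Of 19 conjugating enzymes, exporters and their receptors 8 were higher and 5 lower, a higher count of 4 without bladder replicate 1 and 5 without bladder replicate 2. NR1I2, the pregnane X receptor, went from 1.05 and 0.672 CPM in native bladder to 298 and 169 CPM in control. The sulfotransferase SULT1B1 had 143 and 164 CPM in control and 3.64 and 6.35 CPM in native bladder. SULT1E1, which sulfates oestrogens, was lower at 40.8 and 42 CPM in control and 269.96 and 191 CPM in native bladder, as was the glutathione transferase GSTA4 at 11.2 and 14.6 CPM in control and 109 and 101 CPM in native bladder. The microsomal transferases MGST1, MGST2 and MGST3 were higher, MGST2 from 7.92 and 12.4 CPM to 180.3 and 821 CPM.

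Secretory cell genes of the gut were higher. Of 10 mucins and goblet cell proteins 8 were higher and 1 lower, a median of 8.59. The trefoil peptides TFF2 and TFF3 were both higher. TFF2 stood at 499.7 and 1242 CPM in control against 0.162 and 0.374 CPM in native bladder. TFF3 went from 338 and 459 CPM in native bladder to 5120.2 and 17332 CPM in control. REG4, a secreted lectin, had 2424 and 10009 CPM in control and 0.646 and 1.20 CPM in native bladder. CLCA1, a mucus-processing protease, stood at 10345 and 1672 CPM in control against 3.72 and 7.47 CPM in native bladder. AGR2, which folds mucins in the endoplasmic reticulum, went from 836 and 681 CPM in native bladder to 1975 and 6141 CPM in control. The lower member was SYTL2, an adaptor of secretory vesicles.

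The enzymes that build mucin sugars showed no single direction, 7 higher and 5 lower of 24, with counts of 3 without bladder replicate 1 or on library totals alone and 4 without bladder replicate 2 for higher and 2 in the 2 groups alone or without bladder replicate 1 or 2 for lower. GCNT3, which branches core mucin glycans, had 239 and 155 CPM in control and 11.6 and 11.4 CPM in native bladder. ST6GALNAC1, a sialyltransferase, stood at 203 and 96.7 CPM in control against 0 and 0.971 CPM in native bladder. A4GNT, which caps gastric-type mucin glycans, went from 0 and 0.0747 CPM in native bladder to 75 and 18 CPM in control. B3GNT3, which extends core 1 chains, was lower with 23.5 and 16.1 CPM in control and 189.6 and 199 CPM in native bladder. Galectins included LGALS4, of gut epithelium, with 2933 and 4699.6 CPM in control and 321 and 399 CPM in native bladder, and LGALS2 with 18 and 90.1 CPM in control and 0 counts in either native bladder library, among 3 higher and no lower of 9 lectins. LGALS3 had 1726 and 2885 CPM in control and 1286 and 1299 CPM in native bladder and was not called.

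Enteroendocrine genes were higher in 12 of 19 cases and lower in 1, a median of 6.81, or 3.75 with genes at 0 set to their bound. The higher count was 7 without bladder replicate 1. Proglucagon (GCG) stood at 285 and 657 CPM in control against 0.162 and 0.149 CPM in native bladder. Neurotensin (NTS) went from 0.242 and 0 CPM in native bladder to 98.5 and 395 CPM in control. Somatostatin (SST) had 42.7 and 106 CPM in control and 0 counts in either native bladder library. Cholecystokinin (CCK) had 7.51 and 29 CPM in control and 0 counts in either native bladder library. GIP, the incretin of upper gut, had 10.1 and 38.8 CPM in control and 0 counts in either native bladder library. These 5 hormone genes read higher in control replicate 2. The granule protein chromogranin A (CHGA) had 25.4 and 13.5 CPM in control and 0 and 0.0747 CPM in native bladder, the reverse order.

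Tuft cell genes had 4 higher and 2 lower of 16, with counts of 2 on library totals alone for higher and 5 without control replicate 1 and 4 on library totals alone for lower. GFI1B, a tuft cell factor, stood at 16.2 and 14.8 CPM in control against 0.646 and 0.598 CPM in native bladder, and DCLK1, another marker, was lower with 1.74 and 4.87 CPM in control and 18.8 and 17.6 CPM in native bladder, as was POU2F3. Crypt and progenitor genes had 5 higher and 5 lower of 20. Their counts were 3 without control replicate 1 or in the 2 groups alone and 1 on library totals alone or without bladder replicate 1 or 2 for higher and 3 without control replicate 2 or in the 2 groups alone and 2 without bladder replicate 2 for lower. OLFM4, a crypt base marker, went from 1.53 and 0.822 CPM in native bladder to 6743 and 2364 CPM in control. SMOC2 had 227 and 88.4 CPM in control and 29.3 and 27.9 CPM in native bladder. PROM1, a membrane protein of progenitors, was lower with 19.1 and 10.1 CPM in control and 152 and 199 CPM in native bladder, and so was MMP7, matrilysin, with 1.74 and 2.06 CPM in control and 202 and 575 CPM in native bladder. Of 38 S phase and mitosis genes 10 were higher and none lower, a median of 1.02. That count was 1 on library totals alone or without bladder replicate 1 or 2. The mitotic kinase CDK1 stood at 78.7 and 127 CPM in control against 16 and 13.4 CPM in native bladder. Survivin (BIRC5) went from 12 and 14.5 CPM in native bladder to 60.8 and 186 CPM in control.

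In each of 5 signalling lists more members were lower than higher. In the Wnt list 7 of 28 were lower and 2 higher, a median of -1.01. The lower count was 4 without bladder replicate 1 or in the 2 groups alone, 2 without bladder replicate 2 and 13 on library totals alone, and the higher count 4 without control replicate 1 and 1 without bladder replicate 2. The ligand WNT7B had 0 counts in either control library and 17.9 and 11.2 CPM in native bladder, at least 70.5-fold lower in control, adjusted p = 4.62e-04. The receptor FZD5 was higher with 319 and 92.6 CPM in control and 15.4 and 16.2 CPM in native bladder, and FZD6 was lower with 18.7 and 12.6 CPM in control and 72.3 and 72.1 CPM in native bladder. In the Hedgehog and BMP list 8 of 28 were lower and 1 higher, a median of -0.75, and the lower count was 2 without bladder replicate 1 or 2, 13 on library totals alone and 3 in the 2 groups alone. SHH, the ligand made by basal urothelium, stood at 0 and 0.187 CPM in control against 17.5 and 17.6 CPM in native bladder. Its receptor and target PTCH1 went from 29.7 and 44.7 CPM in native bladder to 13.2 and 7.87 CPM in control. GREM1, a BMP antagonist of gut stroma, was the higher member with 8.49 and 3.75 CPM in control and 0.323 and 0 CPM in native bladder.

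Of 24 EGF and FGF genes 9 were lower and 1 higher, with a lower count of 4 without bladder replicate 1. Ligands were among the lower ones, HBEGF with 12.4 and 13.7 CPM in control and 823 and 119 CPM in native bladder and TGFA with 16.9 and 14.4 CPM in control and 76.3 and 61.3 CPM in native bladder. Receptors were too, FGFR2 with 9.80 and 7.12 CPM in control and 58.9 and 71.8 CPM in native bladder and EGFR with 26.2 and 8.99 CPM in control and 104 and 84.1 CPM in native bladder. ERBB3 was higher with 1027 and 6487 CPM in control and 447 and 597 CPM in native bladder. In the Notch pathway 10 of 21 were lower and none higher, a median of -1.26, and the count was 3 without bladder replicate 1 and 4 without bladder replicate 2 or in the 2 groups alone. NOTCH1 had 8.06 and 6.93 CPM in control and 31.7 and 31.3 CPM in native bladder. NOTCH3, of mural cells, stood at 2.07 and 1.12 CPM in control against 38 and 31.8 CPM in native bladder. The target HES1 went from 158 and 219 CPM in native bladder to 63 and 94.8 CPM in control. Of 17 Eph receptors and ephrins 5 were lower and 3 higher, the lower count being 3 in the 2 groups alone or without bladder replicate 1 or 2 and the higher count 1 without control replicate 2 or on library totals alone and 0 without bladder replicate 1 or 2. The ligand EFNA5 had 6.53 and 4.31 CPM in control and 71.8 and 80.1 CPM in native bladder. EPHA2 stood at 53.1 and 28.3 CPM in control against 393 and 127 CPM in native bladder.

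Connective tissue genes were lower on a broad front. Of 41 proteoglycan, elastic fibre and matricellular genes 29 were lower and 2 higher, a median of -2.29, and the lower count was 19 without bladder replicate 1. CCN1 and CCN2, matricellular proteins induced by stretch and growth factors, were both lower. CCN1 went from 157 and 56.9 CPM in native bladder to 3.27 and 1.69 CPM in control. CCN2 had 39.6 and 21 CPM in control and 1169 and 919.7 CPM in native bladder. Thrombospondin 2 (THBS2) stood at 1.74 and 1.87 CPM in control against 99.9 and 64.9 CPM in native bladder. Osteonectin (SPARC) went from 2989 and 3423 CPM in native bladder to 460.1 and 181 CPM in control. Tenascin XB (TNXB) had 7.19 and 6.56 CPM in control and 91 and 68.4 CPM in native bladder. Against these, osteopontin (SPP1), which macrophages and epithelia also make, stood at 3152 and 1608 CPM in control against 11.3 and 7.70 CPM in native bladder, log2 fold change 7.97 ± 1.60 (SE), adjusted p = 0.00625. Of 35 collagens 13 were lower and 3 higher, a median of -1.30, and the lower count was 7 without bladder replicate 1 and 6 without bladder replicate 2 and the higher count 1 without bladder replicate 1 or on library totals alone and 0 without bladder replicate 2. COL1A1 went from 4144 and 3747 CPM in native bladder to 355 and 95.9 CPM in control. COL1A2 had 772 and 252 CPM in control and 4650.1 and 4776 CPM in native bladder. COL3A1 stood at 915 and 267 CPM in control against 3082 and 5293 CPM in native bladder. These are the fibrillar collagens of stroma. The median span of the collagen list was 147 kb, within the longest quintile, where 19.4% of genes were lower. With the length offset across libraries 11 collagens were lower, a median of -0.97. The proteoglycan list, at a median span of 30.5 kb, had a median of -2.30 with that offset. COL28A1 was among the higher ones with 12.1 and 44.8 CPM in control and 1.86 and 1.05 CPM in native bladder.

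Of 25 metalloproteinases and inhibitors 14 were lower and 1 higher, a median of -2.30. ADAM28, a membrane protease of epithelia and lymphocytes, went from 1424 and 1610.1 CPM in native bladder to 28.6 and 17.8 CPM in control, log2 fold change -6.03 ± 0.58 (SE), adjusted p = 9.74e-05. The aggrecanase ADAMTS5 had 1.63 and 1.12 CPM in control and 36.8 and 27.5 CPM in native bladder. Gelatinase A (MMP2), of fibroblasts, stood at 30.1 and 16.9 CPM in control against 211 and 208 CPM in native bladder. MMP1 had 597 and 546 CPM in control and 2169 and 467 CPM in native bladder and was not called.

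Among markers of other cell types a mucosal piece can hold, those of smooth muscle and vessels had lower members. Of 18 smooth muscle genes 7 were lower and none higher, the count being 3 in the 2 groups alone or without bladder replicate 1 or 2 and 11 on library totals alone, and their summed level was 1742 and 1982 CPM in control and 6666 and 6809 CPM in native bladder. Smooth muscle myosin (MYH11) had 66.5 and 47 CPM in control and 135 and 151 CPM in native bladder. The smooth muscle actin ACTG2 had 192 and 196 CPM in control and 685 and 426 CPM in native bladder. The markers DES and CNN1 overlapped between the groups. DES had 22.9 and 22.5 CPM in control and 66.7 and 19.1 CPM in native bladder. CNN1 had 5.88 and 3.94 CPM in control and 4.77 and 2.91 CPM in native bladder. Smooth muscle actin (ACTA2) stood at 439 and 327 CPM in control against 2737 and 3056 CPM in native bladder. Of 23 endothelial and pericyte genes 8 were lower and none higher, with 14 without control replicate 1, 3 without bladder replicate 1 or 2, 13 on library totals alone and 4 in the 2 groups alone, and sums of 634 and 426 CPM against 938 and 1140.00 CPM. PECAM1, of endothelium, went from 264 and 314 CPM in native bladder to 121 and 83.4 CPM in control. Of 13 nerve, glia and interstitial cell genes 1 was higher, ERBB3 again, and none lower, with 2 higher and 3 lower without control replicate 1 and none higher without bladder replicate 1 or 2 or on library totals alone. Of 12 adipocyte and mesothelial genes 2 were higher and 2 lower. The adipocyte coat protein PLIN1 was at 0 in all 4 libraries and adiponectin (ADIPOQ) had 0.762 and 0.937 CPM in control and 1.05 and 0.598 CPM in native bladder. CIDEC, a lipid droplet protein, was higher with 68 and 44.4 CPM in control and 0.242 and 1.12 CPM in native bladder, and LPL, lipoprotein lipase, with 203 and 68.6 CPM in control and 22.3 and 27.6 CPM in native bladder. The part of these cell types in the lower matrix and signalling genes was not tested.

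Immune genes were higher in several lists. Of 35 genes of T cells, innate lymphoid cells and intraepithelial lymphocytes 16 were higher and 2 lower, a median of 1.61, and the higher count was 7 without bladder replicate 1 or on library totals alone and 6 without bladder replicate 2. CD3D and CD3E, of the T cell receptor complex, were both higher. CD3D stood at 91.3 and 171 CPM in control against 27.7 and 23.8 CPM in native bladder. CD3E went from 13.9 and 12 CPM in native bladder to 46 and 48.7 CPM in control. The cytotoxic granule genes granzyme H (GZMH) and granulysin (GNLY) were both higher. GZMH had 125 and 246 CPM in control and 7.03 and 12.5 CPM in native bladder. GNLY stood at 45 and 71.8 CPM in control against 4.93 and 9.04 CPM in native bladder. CCR9, the receptor that homes lymphocytes to small intestine, went from 3.39 and 2.02 CPM in native bladder to 35.2 and 31.1 CPM in control. GATA3, which T cells also use, was 1 of the 2 lower members, at the values given above. Of 5 butyrophilins and related proteins only BTNL2 was higher and VTCN1, a B7 family inhibitor, lower, with VTCN1 at 0 counts in either control library and 1.37 and 0.747 CPM in native bladder. The lower call was lost when any 1 of the 4 libraries was left out, in the 2 groups alone and with the length offset across libraries.

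Several chemokine genes differed strongly. Of 30 chemokines and receptors 14 were higher and none lower, a median of 1.61, with counts of 8 without control replicate 2, 7 without bladder replicate 1 or on library totals alone and 6 without bladder replicate 2. CCL25, the ligand of CCR9, had 2189 and 3530.2 CPM in control and 4.60 and 9.04 CPM in native bladder, log2 fold change 8.71 ± 0.71 (SE), adjusted p = 4.94e-05. CCL11, eotaxin, had 297 and 645 CPM in control and 0 counts in either native bladder library, at least 4043-fold higher in control, adjusted p = 1.25e-04. CCL26, a further eotaxin, went from 0.646 and 0.971 CPM in native bladder to 396 and 1790.1 CPM in control, log2 fold change 10.37 ± 1.03 (SE), adjusted p = 1.11e-04. CCL28, a mucosal chemokine, had 52.2 and 119.9 CPM in control and 2.83 and 3.74 CPM in native bladder. Interleukin 8 (CXCL8) stood at 237 and 467 CPM in control against 46.9 and 36.1 CPM in native bladder. CXCL14, of epithelia, went from 633 and 749 CPM in native bladder to 1639 and 4666 CPM in control. For all 6, both control libraries lay above both native bladder libraries, and control replicate 2 read higher than replicate 1. A lack of overlap in either direction held for 62.7% of all tested genes.

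Interferon-stimulated genes were higher in 19 of 40 cases and lower in 1, a median of 1.16. The higher count was 5 without bladder replicate 1, 10 without bladder replicate 2 and 6 on library totals alone, and the lower count 4 without control replicate 1. The guanylate-binding proteins GBP1 and GBP2 were both higher. GBP1 had 725 and 481 CPM in control and 53.1 and 66.9 CPM in native bladder. GBP2 stood at 192 and 193 CPM in control against 14.5 and 20.9 CPM in native bladder. The antiviral synthetase OAS1 went from 7.67 and 10.5 CPM in native bladder to 103 and 78.3 CPM in control. In the MHC class I list 7 of 15 were higher and none lower, with 12 without control replicate 2, 2 without bladder replicate 1 and 4 in the 2 groups alone. The immunoproteasome subunits PSMB8 and PSMB9 were both higher. PSMB8 had 610.5 and 1707 CPM in control and 72.7 and 87.3 CPM in native bladder. PSMB9 stood at 585 and 2135 CPM in control against 40.6 and 62.8 CPM in native bladder. The peptide transporter TAP1 went from 70.04 and 84.4 CPM in native bladder to 619 and 286 CPM in control. In the class II list 5 of 12 were higher and none lower, with 8 without control replicate 1 and 0 on library totals alone or in the 2 groups alone or without bladder replicate 1 or 2. CD74, the invariant chain, had 2283 and 3954 CPM in control and 1204 and 1526 CPM in native bladder and was not called.

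Of 21 B and plasma cell genes 4 were higher and 1 lower, with a higher count of 1 without control replicate 2 or without bladder replicate 2, 0 without bladder replicate 1 and 2 on library totals alone or in the 2 groups alone. The joining chain JCHAIN stood at 2927 and 8625 CPM in control against 1184 and 586 CPM in native bladder. TNFRSF17, a plasma cell receptor, went from 2.83 and 4.11 CPM in native bladder to 14.8 and 80.2 CPM in control. MS4A1, the B cell antigen CD20, had 5.77 and 6.93 CPM in control and 10.6 and 4.33 CPM in native bladder and was not called. The share of this list called, 23.8%, was near the 22.3% of all tested genes. Of 27 macrophage, dendritic and mast cell genes 7 were higher and 3 lower, with a higher count of 0 without bladder replicate 1 and 1 without bladder replicate 2 or on library totals alone or in the 2 groups alone and a lower count of 1 without control replicate 2 or without bladder replicate 1 or in the 2 groups alone and 0 without bladder replicate 2. AIF1, of macrophages, stood at 220.1 and 1365 CPM in control against 108 and 131 CPM in native bladder and was higher, while the scavenger receptors CD163 and VSIG4 were lower, CD163 with 12.2 and 6.93 CPM in control and 26.6 and 24.8 CPM in native bladder. Of 16 neutrophil and acute inflammation genes 5 were higher and 6 lower, counts of 2 without control replicate 2 and 1 on library totals alone or without bladder replicate 1 or 2 for higher and 2 without bladder replicate 1 for lower. Calgranulin C (S100A12) went from 58.3 and 29.4 CPM in native bladder to 0.218 and 1.69 CPM in control. The cyclooxygenase PTGS2 had 1.31 and 1.31 CPM in control and 36.5 and 12.6 CPM in native bladder. Both were lower. In the prostaglandin and leukotriene list 3 were higher and 4 lower of 23, the lower count being 7 without control replicate 1 or on library totals alone and 2 without bladder replicate 1 and the higher count 1 on library totals alone. ALOX5, which starts leukotriene synthesis, stood at 75.1 and 54 CPM in control against 11.7 and 14.3 CPM in native bladder. PTGIS, prostacyclin synthase, went from 17.6 and 17 CPM in native bladder to 2.72 and 4.31 CPM in control.

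Soluble defence proteins formed another group, 15 higher and 1 lower of 28, a median of 2.15. The higher count was 7 on library totals alone or without bladder replicate 1 or 2. Lipopolysaccharide binding protein (LBP) had 248 and 161 CPM in control and 0 counts in either native bladder library. The related bactericidal protein BPI stood at 943 and 149.9 CPM in control against 0.0808 and 0.149 CPM in native bladder. The complement genes C5 and C6 were both higher. C5 had 270.3 and 58.5 CPM in control and 0 counts in either native bladder library. C6 had 200.1 and 49.3 CPM in control and 1.45 and 0.448 CPM in native bladder. Factor I (CFI) stood at 1724 and 1052 CPM in control against 30.1 and 36.5 CPM in native bladder. Lipocalin 2 (LCN2), which binds bacterial siderophores, was the lower member with 7.40 and 21 CPM in control and 2566 and 2979.7 CPM in native bladder, log2 fold change -7.62 ± 0.80 (SE), adjusted p = 1.52e-04.

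Genes of rapid response were lower. Of 29 immediate early and heat shock genes 19 were lower and 2 higher, a median of -2.25, and the lower count was 11 without bladder replicate 1 or in the 2 groups alone. FOS went from 2037 and 1575 CPM in native bladder to 121 and 69 CPM in control. EGR1 had 97.8 and 84.7 CPM in control and 1618 and 1035 CPM in native bladder. ATF3 stood at 27.8 and 14.4 CPM in control against 280.4 and 270.2 CPM in native bladder. All 3 are transcription factors induced within minutes of a stimulus. FOSL1 went from 262 and 30.3 CPM in native bladder to 2.29 and 2.06 CPM in control, with native bladder replicates far apart. HSPA8, the constitutive heat shock protein, had 1632 and 2921 CPM in control and 1127 and 779.5 CPM in native bladder and was not called.

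Many genes of respiration and translation were higher, and their counts depended on which libraries were used. Of 33 nuclear genes of oxidative phosphorylation 30 were higher and none lower, a median of 2.15. That count was 0 in the 2 groups alone or without bladder replicate 1 or 2 and 10 on library totals alone. Without bladder replicate 1 or 2 the median was 2.03 and 2.32, and in the 2 groups alone it was 2.21. There the count changed far more than the median. The median was 1.20 with control replicate 1 alone and 2.74 with control replicate 2 alone. UQCRC2, of complex III, stood at 346 and 613 CPM in control against 109.8 and 134 CPM in native bladder. SDHB, of complex II, went from 154 and 161 CPM in native bladder to 456 and 867 CPM in control. COX5B, of complex IV, had 1169.7 and 7521 CPM in control and 372 and 559 CPM in native bladder. Gene span was known for 19 of the 33 genes, under the 80% needed, so a check of this list against length is void.

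Of 34 cytosolic ribosomal protein genes 17 were higher, a median of 2.43, and the count was 34 without control replicate 1 but 0 with control replicate 1 alone, and 0 on library totals alone, without bladder replicate 1 or 2 or in the 2 groups alone. RPS29 stood at 1092 and 9390.04 CPM in control against 500.3 and 762 CPM in native bladder. RPS23 went from 187 and 225 CPM in native bladder to 346 and 2807 CPM in control. Control replicate 2 stood far above the other 3 libraries for both. RPLP0 had 2239 and 12662 CPM in control and 1464 and 1917 CPM in native bladder and was not called. In glycolysis and hypoxia 4 were higher and 3 lower of 26, counts of 7 without control replicate 1 or without control replicate 2, 2 in the 2 groups alone or without bladder replicate 1 or 2 and 1 on library totals alone for higher and 8 without control replicate 1, 1 without bladder replicate 1 or in the 2 groups alone and 0 without bladder replicate 2 for lower. LDHA, lactate dehydrogenase A, stood at 1409 and 1954 CPM in control against 421 and 379 CPM in native bladder. The lactate exporter SLC16A3 went from 1.78 and 0.971 CPM in native bladder to 38.9 and 33.5 CPM in control. Both were higher. The share called was 26.9% in glycolysis and hypoxia and 14.8% in the secretory pathway list that follows, against 22.3% of all tested genes. In the secretory pathway and unfolded protein response 3 were higher and 1 lower of 27, the higher count being 9 without control replicate 1 and 0 on library totals alone or in the 2 groups alone or without bladder replicate 1 or 2 and the lower count 7 without control replicate 1 and 2 on library totals alone.

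Some of the largest changes lay outside these families. MS4A12, a membrane protein of gut epithelium, had 1464 and 2924 CPM in control and 0.0808 and 0.0747 CPM in native bladder. AGMAT, agmatinase, had 121 and 224 CPM in control and 0 counts in either native bladder library, at least 1478-fold higher. TMEM253 and SMIM31, small membrane proteins, were both higher. TMEM253 had 111 and 225 CPM in control and 0 counts in either native bladder library. SMIM31 had 43.6 and 224 CPM in control and 0 counts in either native bladder library. In the other direction GTSF1, a germ cell factor of the piRNA pathway, had 0 counts in either control library and 55.7 and 2.17 CPM in native bladder, which rested on bladder replicate 1. CAPN6, a calpain family member, had 0 counts in either control library and 20.3 and 25.6 CPM in native bladder. ZNF385B had 0 counts in either control library and 21.7 and 15 CPM in native bladder. TMEM213 had 0 counts in either control library and 14.2 and 13.8 CPM in native bladder. IRX3, an Iroquois homeobox factor, had 0 counts in either control library and 4.93 and 5.53 CPM in native bladder. Of the 3686 calls, 833 were of genes with no symbol. Among these, ENSSSCG00000033675 took 3.39 and 4.19% of all counts in the control libraries.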

How the data were processed

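Messenger RNA was sequenced in 8 libraries, and the 2 control neobladder and 2 native bladder libraries are described here. Smart-seq2 was used for complementary DNA and a TruSeq kit for libraries, per the labels' protocols. The deposited files hold raw counts for each Ensembl gene. Per the submitters' processing notes, the authors used HTSeq 0.11.1, HISAT2 and Trim Galore with the Sscrofa11.1 build. Strand settings and the annotation release are not given in the sources used here, so antisense and overlapping genes cannot be separated.

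The test was edgeR 4.0.16 under R 4.3.3, with limma 3.58.1 loaded. Genes passing filterByExpr over the 4 groups were scaled by TMM and fitted together for all 8 libraries (robust quasi-likelihood, common dispersion 0.146, 4 residual degrees of freedom). Benjamini-Hochberg adjusted p-values cover all 16549 tested genes. SE is the log2 fold change over the square root of F. Log2 ratios of replicates used CPM plus 0.5. A count of 3 equals 0.327 and 0.562 CPM in the control libraries and 0.242 and 0.224 CPM in the native bladder libraries. Gene spans and coordinates come from a RefSeq table of Sscrofa11.1, matched by symbol.

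The comparison, its marker genes and the 65 gene lists were chosen with earlier results of these data known, so no list is independent evidence. Named genes were the 15 largest log2 fold changes each way among called genes with a symbol, 5 CPM or more and no overlap, up to 6 members of each list by p and 2 by level, every member of lists of 12 or fewer, marker genes, and the most abundant control genes. Not every eligible gene is described. Alternatives were DESeq2 1.42.0 and its size factors, library totals, no filter, the 2 groups alone, a 1.5-fold test, replicate blocks, offsets for gene span and each library left out. On simulated data with 200 of 16549 genes changed 8-fold, the test called 179, 173 of them changed and 6 not. The simulation used the same dispersion for all genes and built in no length trend or wide gap between replicates. Its share of wrong calls therefore does not carry over to these libraries.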

Additional observations from a re-analysis of the deposited data

How the results depend on the processing

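Scaling, the filter, the DESeq2 test, a 1.5-fold threshold and both length offsets each left between 2733 and 4815 called genes, within 1.5 times the 3686 reported. With the 2 groups alone 2294 genes were called. Leaving out 1 library gave 1442 to 6485 calls, with 6485 without control replicate 1, 3337 without control replicate 2, 1442 without bladder replicate 1 and 1667 without bladder replicate 2. A fit without a library rests on a lone sample in that group, which is assumed to vary like the others. Of the 3686 calls, 38.9 and 44.8% were kept without bladder replicate 1 or 2, 89.7 and 72% without control replicate 1 or 2, 58.7% with the 2 groups alone and 70.3% on library totals alone, all in the same direction. Among these fits, only the one without control replicate 2 changed the sign of a call, 1 in number, and that gene was not called there. Of 130 list counts, 2 for each list, 50 moved by more than 1.5 times on library totals, 65 and 62 without bladder replicate 1 or 2, 38 and 23 without control replicate 1 or 2, 40 with the 2 groups alone, 20 with no filter, 17 each with the DESeq2 test or the 1.5-fold test, 8 each with DESeq2 size factors or the replicate block, and 6 and 10 with the length offset within groups or across libraries. With the replicate block or the 1.5-fold test 8 ribosomal protein genes were higher in place of 17, and 3 keratins lower in place of 5. The block also ended the lower call of VTCN1. The cause was not tested. The Spearman correlation of span with the control replicate ratio was -0.403 among genes of 10 CPM or more. With replicate number as a block 3268 genes were called. Same-numbered libraries of different groups deviated together weakly, with correlations from -0.099 to 0.111, so the numbers were not taken as pairs. A planned repeat with transcript or coding length was not run, because the reference used here gives gene spans only. Genes named as not called changed sign, at adjusted p from 0.307 to 1, in these settings. On library totals the log2 fold change was -0.16 for LGALS3, -0.86 for ADIPOQ and -0.16 for FABP4. With DESeq2 size factors or its Wald test it was 0.02 for AQP1. With the length offset across libraries it was 0.03 for RAB27B and -0.05 for ADIPOQ. With the replicate block it was -0.18 for PLIN1, which had 0 counts in all 4 libraries, and 0.02 for MS4A1. Leaving out 1 library gave ranges of -0.33 to 0.46 for ADIPOQ, -0.41 to 0.24 for AQP1, -1.73 to 0.23 for EZR, -1.20 to 1.92 for FABP4, -1.93 to 0.28 for MMP1, -0.75 to 0.53 for MS4A1 and 0 throughout for PLIN1.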
